A study of Mus musculus with 6 samples.

Results

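Argonaute (Ago) footprints are stretches of RNA recovered by cross-linking and immunoprecipitation of Ago, and 553 of the 6270 footprints in macrophages were 100 nt or longer. These long footprints, 8.82% of the total, were picked by length alone (end minus start), and they covered 16.0% of all footprint bases. The macrophages were grown from bone marrow with M-CSF. One group came from Apobec1-/- (KO) mice and the other from wild-type (WT) littermates, both C57BL/6 and 6 to 12 weeks old, with 3 libraries each. APOBEC1 deaminates cytidine to uridine in mRNA, and the knockout is carried by the whole animal. Ago was recovered with the antibody 2A8.

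Ago proteins carry a miRNA and are guided to mRNA mainly by the seed, bases 2 to 8 of the miRNA. Most functional sites lie in 3′ UTRs, where bound Ago recruits factors that repress translation and shorten the poly(A) tail.

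Each footprint had 1 occupancy value for KO and 1 for WT, which is the authors' ratio of footprint signal to the RNA-Seq expression of the transcript. The table also gave the number of KO and of WT libraries that held the footprint. No value per library was given, so differences between KO and WT have no replicate check, no SD and no p-value. The intervals printed here are 95% intervals over footprints, and footprints are not replicates. Depth is unknown, because no read counts were given. Of the long values above 0, 34.2% in KO and 17.9% in WT were exactly equal to that of another footprint (33.2% and 18.7% for shorter footprints). The source of these equal values was not tested. The sources used here do not say whether the footprint signal was scaled to footprint length.

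The targeted gene Apobec1 carried 3 footprints, all in its 3′ UTR and none of them long. Its occupancies were 0.174, 0.0250 and 0.113 in KO, against 0.181, 0.0462 and 0.144 in WT. They were held by 3, 2 and 3 KO libraries and by 2 WT libraries each. Ago-bound Apobec1 3′ UTR was thus recovered from both genotypes, and the exons that the allele lacks are not named in the sources used here. Occupancy is divided by the RNA-Seq expression of the transcript itself, so these values cannot check the genotype labels. Of 7 macrophage markers, 5 had a footprint, and the F4/80 gene Emr1 had a long one. The T cell, B cell, neutrophil and fibroblast markers had none. Of 5 dendritic cell or osteoclast markers, Nfatc1 alone had a footprint, a shorter one.

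Long footprints with seed sites of several miRNA families are shown first, with the miRNAs that match them. The mature miRNAs below are from RefSeq (GRCm38.p6) with the seed in capitals. miR-15a-5p and miR-103-3p have seeds that are offset by a single base and can share a site.
miR-15a-5p: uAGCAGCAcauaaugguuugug
miR-103-3p: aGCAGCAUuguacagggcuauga
miR-19b-3p: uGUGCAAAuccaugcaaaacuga
miR-24-3p: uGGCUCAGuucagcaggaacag
miR-92a-3p: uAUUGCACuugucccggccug
miR-30a-5p: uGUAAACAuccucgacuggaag
miR-142a-5p: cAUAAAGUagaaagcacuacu

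The Rap2c footprint was the only long one with sites for 4 families. Rap2c encodes a Ras-related GTPase, and its 125-nt footprint lay in the 3′ UTR at chrX:48359785-48359909 (mm9, minus strand). Its sites are printed 5′ to 3′ from the mm9 genome with the 7-nt match to the seed in capitals. Those for miR-15a-5p and miR-103-3p overlap.
Rap2c, miR-19b-3p: tcagaggaaaTTTGCACagatgctgct
Rap2c, miR-103-3p: atttgcacagATGCTGCtttggagaac
Rap2c, miR-15a-5p: tttgcacagaTGCTGCTttggagaact
Rap2c, miR-24-3p: ggttgcagaaCTGAGCCttggtaaacc

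The Herc2 footprint, on the 3′ UTR of a ubiquitin ligase gene, held 3 separate sites within 175 nt at chr7:63486672-63486846 (mm9, plus strand).
Herc2, miR-103-3p: cttccccacaATGCTGCattaccgata
Herc2, miR-30a-5p: taggacctagTGTTTACtacagtgtaa
Herc2, miR-92a-3p: ctacttgtggGTGCAATagattccttc

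Single sites are shown for 3 of the long footprints with the highest occupancy and for 2 further footprints with a miR-92a-3p match, the family of the 22 with the highest density in long footprints relative to windows 50 nt away (11 sites inside, 6 in the windows of both sides). Necap1 (clathrin adaptor), Morc3 (nuclear body ATPase) and Dnmt3a (de novo DNA methyltransferase) carry that match. Golga4 encodes a golgin of the trans-Golgi. The footprint past Metrnl, a gene for a secreted factor, lay at chr11:121578200-121578458 (mm9, plus strand), 579 nt beyond the annotated end of the gene.
Necap1, miR-92a-3p: tgctgtattgGTGCAATaatggtaatt
Morc3, miR-92a-3p: cccaagttttGTGCAATctgaaaagag
Dnmt3a, miR-92a-3p: ccagactcgcGTGCAATaaccttagaa
Golga4, miR-30a-5p: cagtacctcaTGTTTACctagcttttg
Past Metrnl, miR-142a-5p: tccaggagggACTTTATagcttctggt

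Long footprints had a median length of 131 nt, with quartiles of 108 and 159 nt and a maximum of 1092 nt. Shorter footprints had a median of 71 nt, with quartiles of 66 and 79 nt. The authors' single window runs from 30 nt before to 32 nt after a peak, which is 63 nt. Of the long footprints, 308 (55.7%) exceeded 126 nt, the length of 2 such windows end to end. In 82 (14.8%) the length exceeded 63 nt times the number of libraries that held the footprint, so 1 window for each library could not have covered them. The sources used here do not say how windows were joined.

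The longest footprint, 1092 nt or 17.3 windows, was on Plec, which encodes plectin, a linker of intermediate filaments to actin and membranes. It lay at chr15:76001414-76002505 (mm9, minus strand) and covered 91.3% of a 1196-nt 3′ UTR. It was held by all 6 libraries, with an occupancy of 0.811 in KO and 0.499 in WT. Within it were 4 seed sites, of which 2 matched miR-24-3p, 1 matched miR-15a-5p and 1 matched miR-181a-5p.

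Vim, the gene for the intermediate filament protein vimentin, had the fullest coverage. Its 303-nt footprint took 296 of the 312 nt of the 3′ UTR (94.9%) and was held by all 6 libraries. Its occupancy was among the low ones, 0.0230 in KO and 0.0451 in WT. Coverage of 50% or more of the 3′ UTR occurred in 5 long footprints, those on Plec, Glipr1, Vim, Mdh2 and Prdx5. The median long footprint covered 5.31% of its 3′ UTR, against 2.95% for shorter footprints.

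The other footprints among the 12 longest ran from 266 to 474 nt. Atp6ap2, a V-ATPase accessory subunit, had 474 nt with 0.137 in KO and 0.135 in WT, held by 3 KO and 2 WT libraries. Arf6, a GTPase of endocytic traffic, had 292 nt with 1.38 in KO and 0.791 in WT, held by all 6. Whsc1, a histone H3 methyltransferase gene, had 288 nt across the stop codon with 2.98 in KO and 5.58 in WT. The values of Atp6ap2 were nearly equal, while Arf6 was the higher in KO and Whsc1 the lower.

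Morc3 had 283 nt with 0.212 in KO, where no library held it, and 0.934 in WT. Rtn4, which shapes the endoplasmic reticulum, had 275 nt with 0.125 in KO and 0.113 in WT. Cd44, the hyaluronan receptor gene, had 274 nt with 0.601 in KO and 0.518 in WT. Kpna4, an importin gene, had 266 nt with 0.842 in KO and 0.555 in WT. Glipr1 and Akirin2 ran beyond the annotation, with 114 of 313 nt and 75 of 268 nt in annotated exons. Akirin2 encodes a nuclear protein of innate immune gene control, and its occupancy was 0.456 in KO and 1.04 in WT.

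Most long footprints lay in 3′ UTRs, 528 of 553 (95.5%, 95% Wilson interval 93.4 to 96.9%), against 96.8% of shorter footprints. A further 4 were in coding sequence, 4 in other exons, 1 in an intron and 16 outside any gene on the same strand. Long footprints touched coding sequence in 63 cases (11.4%, interval 9.01 to 14.3%), against 6.94% of shorter footprints (6.31 to 7.63%). They reached outside annotated exons in 7.23% of cases, against 3.73%. Length enters each of these counts, and its part in them was not tested. None spanned more than 1 exon.

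Within the 3′ UTR the centres of long footprints lay slightly nearer the stop codon, with overlapping intervals. Their centres fell in the fifth nearest the stop in 27.5% and in the fifth nearest the UTR end in 15.3%, against 25.3% and 18.3% of shorter footprints. The median relative position was 40.5% of the 3′ UTR (36.6 to 44.9%), against 45.0% (43.6 to 46.4%). The median length of the 3′ UTR itself was similar, 2429 nt against 2388 nt.

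The 16 footprints outside genes made up 2.89% of the long set (1.79 to 4.65%), against 1.63% of shorter footprints (1.33 to 1.99%). They lay 37 to 4915 nt past the end of the nearest same-strand gene upstream, and 5 were within 1000 nt. The stretch past Zfp871, a zinc finger gene, held 5 of them, and 9 footprints of any length. The longest there had 296 nt at chr17:32907111-32907406 (mm9, minus strand), with 1.42 in KO and 1.71 in WT. A 157-nt footprint at chrX:33906675-33906831, past an annotated U6 copy, had 2.66 in KO and 1.40 in WT. The intronic one was in Mcm9, a helicase gene, with 2.10 in KO and 0.813 in WT, opposite the 3′ UTR of Asf1a on the other strand.

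Long footprints overlapped other footprints more often than shorter ones did. An overlap with another footprint occurred in 5.06% (3.53 to 7.22%), against 2.55% of shorter footprints (2.18 to 3.00%). Another footprint lay within 50 nt in 16.5% (13.6 to 19.8%), against 13.1% (12.3 to 14.0%). The median gap to the nearest footprint was 198 nt, against 215 nt. A longer footprint is more likely to meet or lie near another, and these shares carry no allowance for length. Runs of 8 or more of the same base occurred in 6.15%, against 2.64%, without allowance for length.

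Support by libraries was lower in KO than in WT for long and shorter footprints alike. At least 2 KO libraries held 209 long footprints (37.8%, 33.8 to 41.9%), against 40.4% of shorter footprints (39.1 to 41.6%). At least 2 WT libraries held 522 (94.4%, 92.2 to 96.0%), against 94.9% (94.3 to 95.5%). Because entry to the table required 2 libraries of a single genotype, 344 long footprints (62.2%) entered through WT alone and 31 (5.61%) through KO alone. The corresponding shares of shorter footprints were 59.6% and 5.07%. The part of unequal support in the differences between KO and WT values was not tested.

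All 6 libraries held 16 long footprints, 2.89% (1.79 to 4.65%), against 6.17% of shorter footprints (5.58 to 6.83%). The relation of support to length was not monotonic. The share held by at least 2 KO libraries was 46.5% at 63 to 71 nt, 30.7% at 85 to 99 nt, 32.6% at 100 to 125 nt, 36.3% at 126 to 189 nt and 62.1% at 190 nt or more. The share held by all 3 WT libraries was also lowest at intermediate lengths, though its minimum was at 100 to 125 nt and that of the KO share at 85 to 99 nt. It was 19.4%, 8.27%, 7.11%, 15.3% and 24.2% in those bands. Whether a footprint is longer because more libraries held it was not tested.

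**Figure D1:**
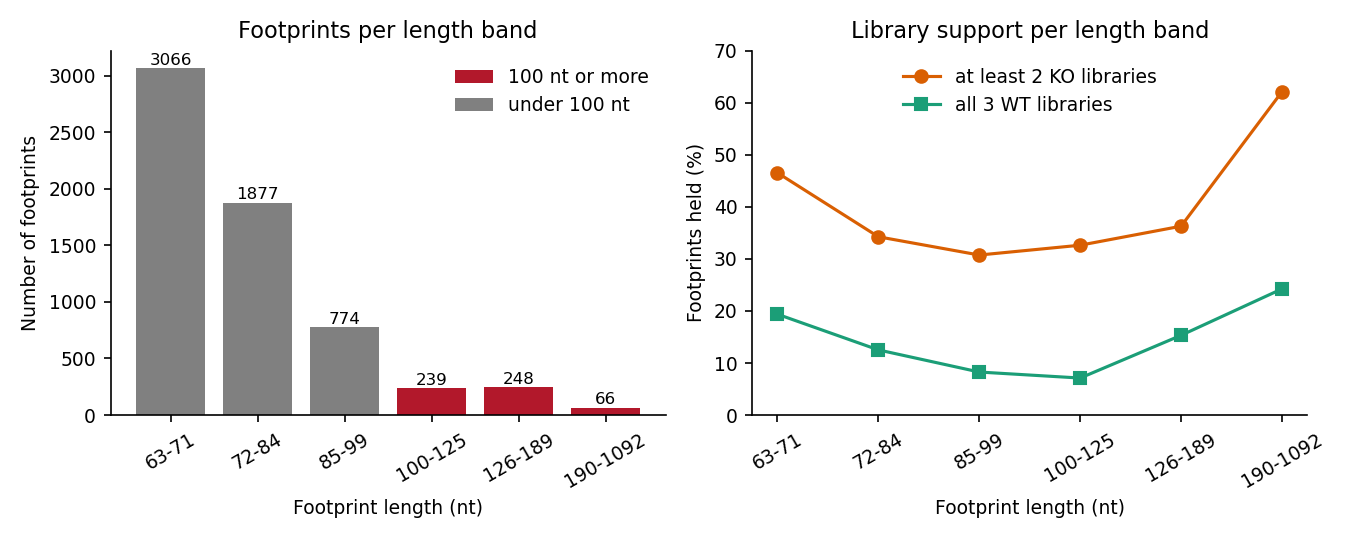
Number of footprints per length band (left, bars, red for 100 nt or more and grey for shorter) and share of each band held by at least 2 KO libraries or by all 3 WT libraries (right, percent). Both shares were lowest between 85 and 125 nt and highest at 190 nt or more, a band of 66 footprints.

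The occupancy of long footprints was lower than that of shorter footprints in both genotypes. In KO the median was 0.303 (0.269 to 0.360) for long and 0.384 (0.370 to 0.402) for shorter footprints. In WT it was 0.318 (0.289 to 0.347) for long and 0.416 (0.404 to 0.433) for shorter footprints. The quartiles of the long set were 0.128 and 0.683 in KO and 0.145 and 0.644 in WT, so single footprints differed far more than the sets. The lower level was not particular to footprints of 100 nt or more. The medians were 0.429 in KO and 0.468 in WT at 63 to 71 nt, 0.344 in KO and 0.384 in WT at 72 to 84 nt, and 0.319 in KO and 0.348 in WT at 85 to 99 nt. The highest long values were 9.26 in KO and 5.58 in WT, against 46.3 and 35.5 for the shorter set. Occupancy was listed at 0 in KO for 21 long footprints (3.80%), against 4.71% of shorter footprints, and in WT for none of either set.

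The level also varied within the long set. Footprints of 190 nt or more had medians of 0.505 in KO and 0.481 in WT, and those of 100 to 125 nt had 0.271 in KO and 0.289 in WT. Across the 553 long footprints, Spearman's rank correlation of length with the mean occupancy of both genotypes was 0.14, and across the 5717 shorter ones it was -0.12. These are descriptions over footprints that share libraries and, in part, transcripts.

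The footprint past Metrnl had the highest mean occupancy of all long footprints, 9.26 in KO and 5.57 in WT. Whsc1, with the values above, came next. Necap1 had 3.62 in KO and 3.67 in WT, Jun (an AP-1 subunit) 3.26 in KO and 3.98 in WT, and Golga4 3.25 in KO and 2.54 in WT. Past Metrnl, Necap1 and Jun were held by all 6 libraries, Golga4 by 3 KO and 2 WT libraries.

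The remaining 5 of the 10 highest were on Larp1, Tmem38b, Psd3, Rnd3 and Zfp516. Larp1, which binds mRNAs of the translation machinery, had 2.80 in KO and 2.15 in WT. Tmem38b, an intracellular cation channel gene, had 3.20 in KO and 1.46 in WT. Psd3, an exchange factor for Arf6, had 1.92 in KO and 2.63 in WT. Rnd3, an atypical small GTPase gene, had 0.920 in KO, where 1 library held it, and 3.43 in WT, where 3 did. Zfp516 had 1.69 in KO and 2.58 in WT.

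A comparison inside genes sets long and shorter footprints of the same gene side by side. Long and shorter footprints lay together on 354 genes, and the long ones had the lower median occupancy on 245 of them and the higher on 109. The median log2 ratio of long over shorter was -0.51 (-0.65 to -0.37). Taken on each genotype separately it was -0.48 in KO and -0.42 in WT. The footprint with the highest occupancy of the gene was a long one on 65 genes (18.4%), while 28.9% of the footprints of such a gene were long on average. If occupancy was not already scaled to length, dividing it by length gives a median of -1.35, an alternative chosen after seeing the data.

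Genes differed in this respect. The long footprints of Whsc1 (log2 1.85), Necap1 (2.17) and Arf6 (1.16) were above the shorter ones of the same gene. Plec, with 1 footprint of each kind, had the highest ratio at 3.43. With occupancy divided by length, Necap1 was still above at 0.79, while Whsc1 (-0.13), Arf6 (-0.77) and Plec (-0.67) were below. The long footprints of Cep350 (-2.08), Plekhm3 (-1.26) and Igf1 (-1.09) were below, and Cd44 (0.02) was level. Qk was level on the mean of both genotypes (0.03) and below within each of them (-0.50 in KO and -0.66 in WT). The lowest ratio was that of Rab3il1 at -4.14, again with 1 footprint of each kind.

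**Figure D2:**
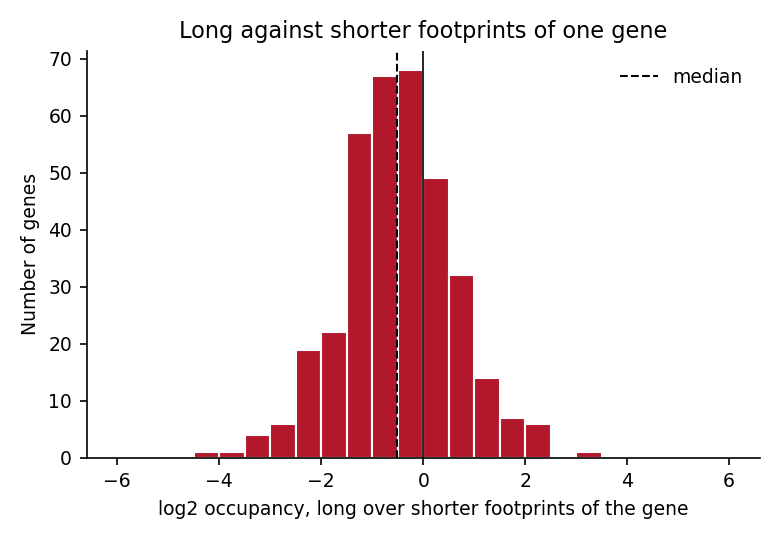
Number of genes by the log2 ratio of the median occupancy of their long footprints over that of their shorter ones, for the 354 genes with both. The solid line marks equality and the dashed line the median of -0.51, with 109 genes above 0 and 245 below.

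Between genotypes, the long footprints were spread on both sides of equality. The median log2 ratio of KO over WT, with a pseudocount of 0.00161 added to both, was 0.05 (-0.06 to 0.22), with quartiles of -0.88 and 0.92, against -0.05 (-0.09 to -0.01) for shorter footprints. Occupancy was at least 2-fold higher in KO for 123 long footprints (22.2%), where the share over all 6270 footprints was 18.9%. It was at least 2-fold lower in KO for 126 (22.8%), where the share over all footprints was 24.2%. This count includes the 21 long footprints listed at 0 in KO, whose fold rests on the pseudocount. Of the 532 long footprints above 0 in both genotypes, 123 were at least 2-fold higher in KO and 105 at least 2-fold lower. In all, 283 long footprints (51.2%, 47.0 to 55.3%) were higher in KO, against 48.5% of shorter footprints (47.2 to 49.8%). Inside the 354 genes with both kinds, the long minus shorter difference in the log2 ratio had a median of -0.08 (-0.28 to 0.09), above 0 on 164 genes and below on 190.

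At least 2 libraries of both genotypes held 178 long footprints (32.2%, against 35.3% of shorter footprints). Their median log2 ratio was 0.55 (0.38 to 0.72), against 0.41 (0.36 to 0.47) for shorter footprints. Of these, 53 were at least 2-fold higher in KO (29.8%, with 26.2% over all footprints so held) and 6 at least 2-fold lower (3.37%, with 5.01% over all so held). Requiring 2 KO libraries leaves out footprints with little KO signal, so this selection and the ratio are not independent.

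Among these 178, the highest ratio was on Ifnar2, a subunit of the type I interferon receptor. Its 181-nt footprint at chr16:91405108-91405288 (mm9, plus strand) had 0.759 in KO and 0.0627 in WT (log2 3.56). Bcl2l1, which encodes the anti-apoptotic Bcl-xL, had 2.09 in KO and 0.200 in WT (log2 3.37). Dnajc18, a co-chaperone gene, had 2.45 in KO and 0.283 in WT (log2 3.10). In these, 2 or 3 KO libraries and 2 WT libraries held the footprint.

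Acer3, an alkaline ceramidase gene, had 0.667 in KO and 0.0792 in WT (log2 3.05). Ggta1, a galactosyltransferase gene, had 0.372 in KO and 0.0682 in WT (log2 2.42). Of the 5 highest, Bcl2l1 and Dnajc18 kept a ratio of at least 2-fold when the pseudocount was 1, with log2 values of 1.36 and 1.43. The others were under 2-fold, at 0.73 for Ifnar2, 0.63 for Acer3 and 0.36 for Ggta1. With that pseudocount no footprint can pass 2-fold unless its higher value is at least 1. Ifnar2, Acer3 and Ggta1 were below 1 in both genotypes, so they could not have passed, whatever their ratio.

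At the low end of the 178, B430306N03Rik had 0.978 in KO and 3.07 in WT (log2 -1.65). Tor1aip2, a nuclear envelope gene, had 0.536 in KO and 1.31 in WT (log2 -1.29). Fam168b had 0.168 in KO and 0.390 in WT (log2 -1.20). Mat2a, the S-adenosylmethionine synthase gene, had 0.399 in KO and 0.856 in WT (log2 -1.10). Acap2, a GTPase-activating protein for Arf6, had 0.454 in KO and 0.970 in WT (log2 -1.09). With a pseudocount of 1, B430306N03Rik alone of these remained past 2-fold, at -1.04. Fam168b, Mat2a and Acap2 were below 1 in both genotypes and could not have passed at that setting.

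The 16 long footprints held by all 6 libraries are the best supported. Their median log2 ratio was 0.09, against 0.13 for the 353 shorter footprints so held. Of the 16, 9 were higher in KO, 1 was at least 2-fold higher and none was at least 2-fold lower. Of all 369 footprints so held, 25 were at least 2-fold higher in KO and 16 at least 2-fold lower, so few of any length passed 2-fold. The single long one past 2-fold was on Arhgdia, with 0.155 in KO and 0.0751 in WT. Zfand5, a zinc finger gene, had 1.59 in KO and 1.63 in WT.

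Slc23a2, a vitamin C transporter gene, had 0.408 in KO and 0.584 in WT. Igf1, the growth factor gene, had 0.565 in KO and 0.409 in WT. Cd93, a surface receptor gene, had 0.405 in KO and 0.451 in WT. In these the genotypes differed by well under 2-fold, in either direction.

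**Figure D3:**
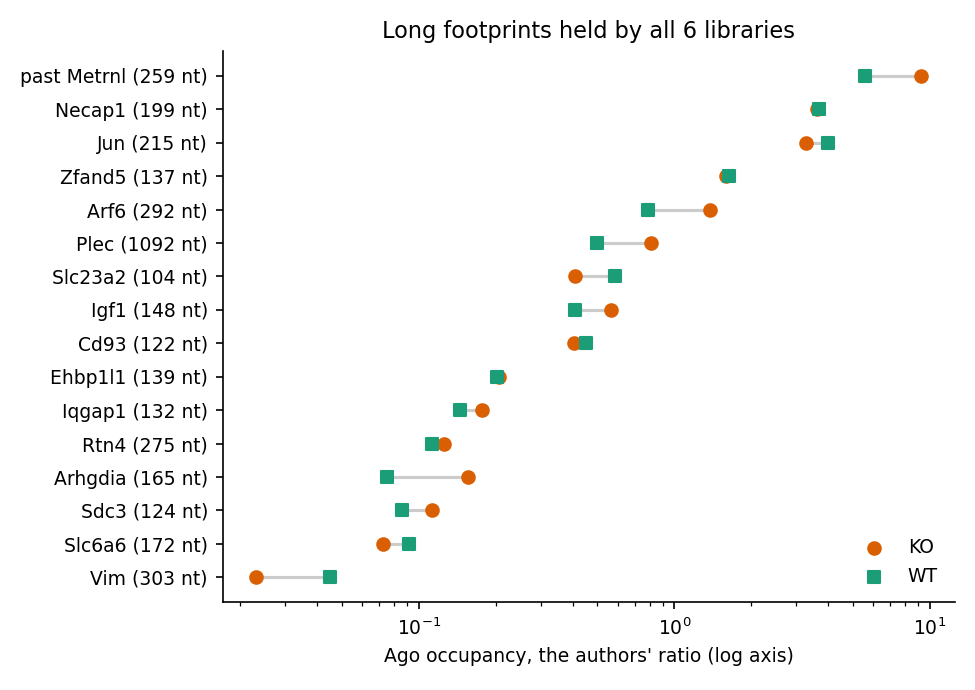
Ago occupancy (the authors' ratio, log axis) of the 16 long footprints held by all 6 libraries, ordered by mean occupancy, with KO as circles and WT as squares. The values span 0.0230 to 9.26, and the genotypes lie close together, with the widest gaps on Arhgdia and Vim.

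At the opposite end, 4 long footprints were held by KO libraries and by no WT library, and 147 (26.6%) by WT libraries and by no KO library. Of the shorter footprints, 25 were held by KO libraries alone and 1605 (28.1%) by WT libraries alone, so the share of the long set was near that of the rest. These 4 are named here with their values already known. The one on Wdr82, a histone methyltransferase cofactor gene, was in all 3 KO libraries with 0.761 in KO and 0.0531 in WT. Tcfe3, a transcription factor of lysosomal genes, had 0.160 in KO and 0.0184 in WT. Plxna1, a semaphorin receptor gene, had 0.387 in KO and 0.189 in WT. The one at chr6:86946774-86946879, 4915 nt past Aak1, had 1.40 in KO and 0.824 in WT.

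A value above 0 was thus given for a genotype in which no library was counted as holding the footprint. This was so for 126 long footprints in KO (22.8%, against 23.4% of shorter footprints) and for 4 in WT (0.723%, against 0.437%), so it was common to the whole table. The 21 long footprints listed at 0 in KO all had no KO library. Of those, the highest in WT were Fnip1 (1.72), a folliculin partner gene, Arsk (0.872), a sulfatase gene, and Ddx26b (0.773), each held by 2 WT libraries. They too are named with their values known. No single fold is given against a listed 0, though all 21 count among the long footprints at least 2-fold lower in KO.

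The ratio of KO over WT moved with base composition. G+C content of the long footprints had a median of 43.6% (42.3 to 44.7%) and ran from 22.4 to 66.9%, against a median of 42.9% (42.6 to 43.2%) for shorter ones. Across the 553 long footprints, Spearman's rank correlation of G+C content with the log2 ratio was 0.34, and across the 5717 shorter ones 0.32, given as descriptions. In the tercile of lowest G+C content the median log2 ratio of long footprints was -0.44 (-0.69 to -0.12), with 16 at least 2-fold higher in KO (9.47%, against 9.16% of shorter footprints of that tercile) and 60 lower (35.5%, against 36.9%). In the middle tercile it was -0.08 (-0.28 to 0.13), with 39 higher (20.97%, against 17.7%) and 45 lower (24.2%, against 22.8%). In the tercile of highest G+C content it was 0.60 (0.42 to 0.77), with 68 higher (34.3%, against 29.0%) and 21 lower (10.6%, against 13.2%).

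Shorter footprints had medians of -0.54, -0.02 and 0.39 in the same terciles. Library support also differed between the terciles. The share of long footprints in at least 2 KO libraries was 26.6% in the lowest tercile, 36.0% in the middle and 49.0% in the highest, and in at least 2 WT libraries it was 99.4%, 96.2% and 88.4%. G+C content thus went with which genotype's libraries held a footprint, and its part in the KO against WT values was not tested.

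**Figure D4:**
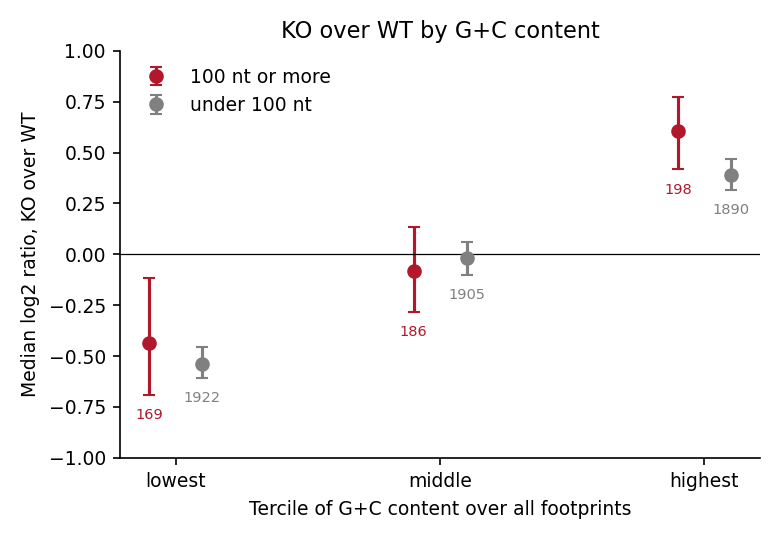
Median log2 ratio of KO over WT by tercile of G+C content over all footprints, for footprints of 100 nt or more (red) and under 100 nt (grey). Bars are 95% intervals over footprints and the numbers beneath are footprints, and the medians of the long set run from -0.44 in the lowest tercile to 0.60 in the highest.

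On genes, the 537 long footprints with a gene fell on 464 of the 2222 genes with any footprint (20.9%). A single long footprint was found on 403 genes, 2 on 50, 3 on 10 and 4 on 1. Genes with a long footprint had a median of 3 footprints, against 1 for genes without, and 110 genes had long footprints alone. A gene with more footprints has more chances to hold a long one, and no allowance was made for this. Footprints of a gene share its RNA-Seq divisor, so they are not independent.

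Plekhm3, with 4 long footprints of 16, had 0.944, 0.683, 1.38 and 1.07 in KO, against 0.423, 1.22, 0.370 and 2.91 in WT. Both directions occurred in neighbouring stretches of its 3′ UTR. The one lowest in KO relative to WT had a G+C content of 22.4%, and those highest had 50.8% and 51.0%. Among the genes named here for their number of long footprints, ratio and G+C content rose together on Plekhm3, Qk and Cbx5. They did not on Jun, Cep350, Gsk3b, Cd44 and Dnmt3a. Jun had long footprints alone, with 0.643, 3.26 and 0.0390 in KO, against 0.654, 3.98 and 0.292 in WT. The 152-nt one, with the lowest values, crossed the stop codon.

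Cep350, a centrosome gene, had 3 long footprints of 6, with 0.171, 0.193 and 0.393 in KO, against 0.655, 0.788 and 1.44 in WT. All 3 were held by 2 WT libraries and by no KO library, and their log2 ratios were -1.93, -2.02 and -1.87. Qk, which encodes the RNA-binding protein quaking, had 3 of 26, with 0.228, 0.911 and 0.434 in KO, against 1.77, 0.346 and 0.154 in WT. Gsk3b, a kinase gene of Wnt and insulin signalling, had 3 of 11, with 0.221, 0.882 and 0.719 in KO, against 0.659, 0.266 and 0.794 in WT. In Qk and Gsk3b the direction differed between footprints of the same gene, and in Cep350 it did not. The Cep350 footprints entered the table through WT alone and share an RNA-Seq divisor, so their common direction is not independent of how they entered.

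Cbx5, the gene for heterochromatin protein HP1 alpha, had 3 of 12, with 1.33, 0.384 and 0.429 in KO, against 0.0972, 0.738 and 0.351 in WT. Dnmt3a had 3 of 12, with 0.395, 0.0730 and 0.996 in KO, against 0.135, 0.277 and 0.264 in WT. Cd44 had 3 of 11, with 0.627, 0.601 and 0.211 in KO, against 0.460, 0.518 and 0.265 in WT. Each Cd44 footprint was held by 2 KO and 3 WT libraries, and its log2 ratios stayed between -0.32 and 0.45.

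By function, immune signalling genes had a long footprint on 7 of 21 measured (33.3%, against 20.9% of all genes). Irf2, an interferon regulatory factor, had 1.41 in KO and 0.393 in WT, and Nfkb1, an NF-κB subunit, had 0.292 in KO and 0.0990 in WT. With Ifnar2 these were the 3 past 2-fold higher in KO, of 7 long footprints, and 1 was at least 2-fold lower. The shares over all footprints were 18.9% and 24.2%. The IκB family genes Nfkbia and Nfkbiz had 0.350 and 1.59 in KO, against 0.488 and 1.22 in WT. Ifnar1 had 0.248 in KO and 0.224 in WT.

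RNA-binding and miRNA machinery genes had a long footprint on 7 of 23, with 11 footprints of which 5 were at least 2-fold higher in KO and 4 lower, where the shares over all footprints were 18.9% and 24.2%. Cnot7, a deadenylase subunit, had 0.257 in KO and 1.16 in WT. Pum2, a Pumilio repressor, had 0.130 in KO and 0.589 in WT. Pan3, of the other deadenylase complex, had 0.621 in KO and 0.275 in WT. Neither Cnot7, nor Pum2, nor the Qk footprint with 0.228 in KO and 1.77 in WT was held by any KO library. These entered the table through WT alone, so their direction is not independent of how they entered. Celf1, a splicing and decay factor, had 1.13 and 0.428 in KO, against 0.234 and 1.08 in WT.

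Ddx6, a helicase of P-bodies, had 0.209 and 0.104 in KO, against 0.0536 and 0.122 in WT. Mbnl1, a splicing factor, had 0.237 in KO and 0.255 in WT. No footprint of the Ago genes Eif2c1 and Eif2c2 was long, though both genes had shorter ones.

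Actin and adhesion genes had a long footprint on 7 of 26 (26.9%), 8 footprints with a median log2 ratio of 0.40. Rac2, the haematopoietic Rac GTPase, was the 1 past 2-fold, with 0.0211 in KO and 0.00764 in WT. That WT value was the lowest of all long footprints, and the share at least 2-fold higher in KO over all footprints was 18.9%. Itgb1 and Itgav, integrin chains, had 0.449 and 0.291 in KO, against 0.314 and 0.325 in WT. Flna, an actin crosslinker, had 0.144 in KO and 0.0781 in WT. The remaining members with a long footprint were Arpc5, Rac1 and Iqgap1.

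Macrophage identity genes had a long footprint on 4 of 22 (18.2%), none past 2-fold. The transcription factor gene Maf had 1.27 in KO and 1.96 in WT, held by 2 KO and 3 WT libraries. Lair1, an inhibitory receptor, had 0.706 in KO and 0.644 in WT, and Emr1 had 0.0380 in KO and 0.0272 in WT. Endolysosome genes had a long footprint on 4 of 23 (17.4%), with 5 footprints. The cholesterol carrier Npc2, the sorting nexin Snx27 and 1 of 2 on the V-ATPase subunit Atp6v1a were listed at 0 in KO, against 0.00796, 0.297 and 0.0318 in WT. Those listed at 0 were held by no KO library and entered the table through WT alone. The other on Atp6v1a had 0.119 in KO and 0.0960 in WT. Atp6v0d1 had 0.0374 in KO and 0.0584 in WT. Over all footprints, 18.9% were at least 2-fold higher in KO and 24.2% at least 2-fold lower. The lists were picked by hand, no list was tested, and the list shares carry no allowance for the number of footprints per gene.

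Seed sites of 22 miRNA families were counted as 7-nt matches to seed bases 2 to 8 on the footprint strand alone. A site was present in 146 long footprints (26.4%, 22.9 to 30.2%), against 16.8% of shorter footprints (15.9 to 17.8%). In windows of the same length 50 nt away on either side the shares were 25.7% for long and 13.7% for shorter footprints. These windows were not cleared of other footprints. Length raises the chance of a match, and per kb the order was the other way. Long footprints held 2.28 sites per kb and their neighbouring windows 2.20, while shorter footprints held 2.66 and their neighbouring windows 2.12. In the central 63 nt the density was 2.38 per kb in long and 2.74 in shorter footprints.

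The concentration of sites at the centre was less distinct in long footprints. The centre is the midpoint of the whole footprint, which need not be a peak where the footprint is longer than a single window. In the 40 nt around the centre the density was 2.71 per kb for long and 3.28 for shorter footprints, with counting errors of 0.35 and 0.12. In the long set a bin far from the centre, 300 to 261 nt upstream, was as dense at 2.76 per kb, and the sparsest, 60 to 99 nt downstream, had 1.58. By length, density was 2.47 per kb at 100 to 125 nt, 2.44 at 126 to 189 nt and 1.62 at 190 nt or more, against 2.90 at 63 to 71 nt, 2.54 at 72 to 84 nt and 2.21 at 85 to 99 nt. The windows 50 nt away had 2.14, 2.21 and 2.24 beside the long bands, and 2.17, 2.02 and 2.19 beside the shorter ones. Density was thus also lower in the longer of the shorter footprints, and at 85 to 99 nt it was below that at 100 to 189 nt.

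**Figure D5:**
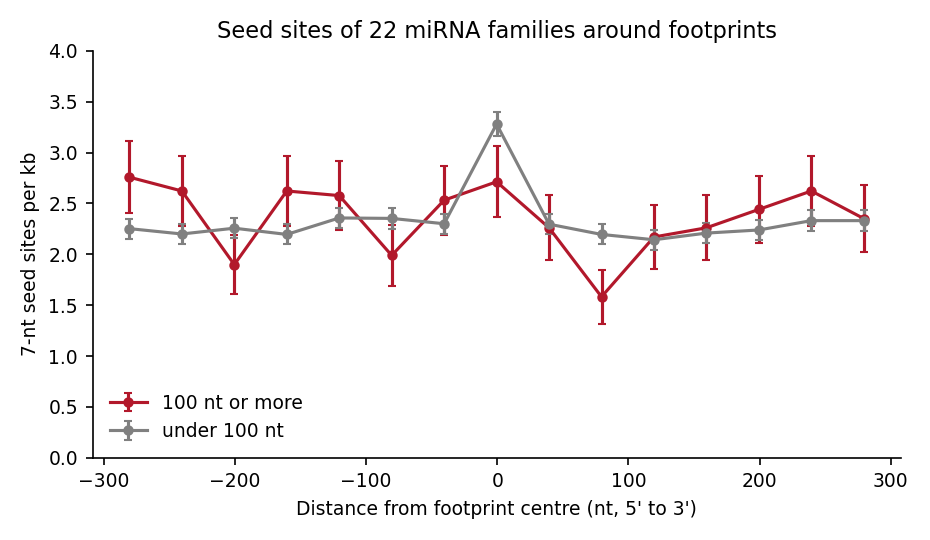
Seed sites of 22 miRNA families per kb in 40-nt bins by distance from the footprint centre, for footprints of 100 nt or more (red) and under 100 nt (grey), with counting errors (square root of the count). Shorter footprints show a central bin of 3.28 per kb above a level near 2.2, while the central bin of long footprints, 2.71, lies within the spread of their other bins.

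By family, miR-15a-5p sites were the most frequent, in 3.98% of long footprints (24 sites in 22), against 2.53% of neighbouring windows. miR-92a-3p stood at 1.99% of long footprints (11), against 0.542% of neighbouring windows, and at 0.665% of shorter footprints, against 0.429% of theirs. miR-155-5p, induced in activated macrophages, stood at 1.45% of long footprints, against 0.723% of windows. Some were no denser than the surroundings, such as miR-29a-3p at 1.08% against 2.08%. In 9 of the 22 families the density per kb was higher in long footprints than 50 nt away, and for shorter footprints in 17 of 22. In the long set it was equal inside and away for miR-19b-3p, miR-142a-5p and miR-221-3p. Long footprints held from 3 sites (miR-21a-5p) to 24 (miR-15a-5p) per family. Shorter footprints held from 24 to 112 for the same families, so the 2 counts of families rest on unlike numbers of sites.

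The 11 long footprints with a miR-92a-3p site were on genes of varied function, and their values had no common direction. Necap1 had 3.62 in KO and 3.67 in WT, and Herc2 had 1.00 in KO and 1.15 in WT. Rapgef6, an exchange factor for Rap GTPases, had 2.44 in KO and 0.630 in WT, and Zeb2, a zinc finger transcription factor, had 0.300 in KO and 0.746 in WT. Morc3 and Dnmt3a, with no KO library, had 0.212 and 0.0730 in KO, against 0.934 and 0.277 in WT.

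Sites of a single family were found in 120 long footprints, of 2 in 22, of 3 in 3 and of 4 in 1. In 7 of them sites of different families overlapped, which was miR-15a-5p with miR-103-3p in 4. The Rap2c footprint, with 4 families, had 1.76 in KO (2 libraries) and 0.131 in WT (1 library), or 3.73 on the log2 scale. Herc2, with 3, was nearly level between genotypes. Tm6sf1, a transmembrane protein gene, had 3 families, among them overlapping miR-23a-3p and miR-181a-5p sites, with 0.0464 in KO (no library) and 0.318 in WT (2 libraries).

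Other sites lay in footprints of high occupancy. Id2, an inhibitor of bHLH transcription factors, had 2.68 in KO and 1.45 in WT, with a miR-181a-5p site. Zfc3h1, a nuclear RNA surveillance gene, had 1.97 in KO and 2.14 in WT, with a miR-155-5p site. Long footprints with a site had a median log2 ratio of 0.14 (-0.15 to 0.35), and those without had 0.02 (-0.11 to 0.23). Median occupancies were 0.296 in KO and 0.320 in WT with a site, and 0.304 in KO and 0.314 in WT without, so a 7-nt site went with little difference.

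For elements read by other factors, the polyadenylation hexamer AATAAA was in 10.7% of long footprints, against 9.40% of neighbouring windows. The AU-rich pentamer ATTTA was in 20.8%, against 19.7%. The Pumilio motif TGTANATA was in 5.24%, against 4.25%. Per kb these came to 0.845, 1.69 and 0.404 in long footprints, and 0.980, 1.66 and 0.515 in shorter footprints. In shorter footprints TGTANATA was 0.515 per kb inside and 0.223 in neighbouring windows, while in long footprints it was 0.404 inside and 0.315 in neighbouring windows. The motifs were searched on the footprint strand and can overlap seed sites.

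At the boundary, 11 footprints had exactly 100 nt, with median occupancies of 0.279 in KO and 0.246 in WT. The 23 footprints of 99 nt had medians of 0.164 in KO and 0.280 in WT. Just inside, Gxylt1 had 1.40 in KO and 0.501 in WT, and Zmat3 had 0.279 in KO and 0.974 in WT. Just outside, Elmo1 had 1.05 in KO and 0.737 in WT, and Srgap2 had 1.38 in KO and 0.333 in WT.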

How the data were processed

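Ago HITS-CLIP was carried out on macrophages of 3 Apobec1-/- and 3 WT mice. Reads were split by length by the authors, per the series design text, who aligned them to mm9, joined overlapping reads into clusters and took a footprint around each peak. The submitters' processing notes name Bowtie 0.12.8 and bedtools. The authors deposited occupancy as a ratio of footprint signal to RNA-Seq expression, 1 value per genotype. They also deposited a score that counts the KO, or the WT, libraries with the footprint. The sources used here do not say how libraries were combined or how library size was handled. No read counts were given, so depth is unknown.

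The members and gene lists were chosen with earlier results of these data known. Footprints took the first same-strand class of GENCODE vM1, 3′ UTR first, on NCBIM37 (the assembly of mm9). The 3′ UTR of a footprint is the longest annotated one of its gene that it overlaps. Where a footprint met several genes of its class (2 long ones), the longest overlap decided. Coordinates were deposited in BED form and are printed counted from 1. Log2 ratios used a pseudocount of 0.00161, below the smallest value above 0, and understate differences of low values. Intervals of shares are Wilson intervals and those of medians come from binomial order statistics, both at 95%, over footprints.

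Named footprints were the 12 longest, the 10 of highest mean occupancy, the 5 highest and 5 lowest ratios among those in at least 2 libraries of both genotypes, those of the 8 genes with most long footprints (ties by larger summed mean occupancy), those with 3 or more families, the 6 of highest occupancy with a site, those in all 6 libraries, 4 outside 3′ UTRs and 4 at the length boundary. Members of the lists were also named, except some that are not reported here. All 22 miRNAs matched the RefSeq table. A planned repeat feature was not used, because the genome marks no repeats. Scripts ran in Python 3.11.15 with pandas 2.3.3, SciPy 1.17.1, pysam 0.24.0 and samtools 1.23.1, and were tested on simulated data.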

Additional observations from a re-analysis of the deposited data

How the results depend on the processing

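No paired analysis was possible because the table holds 1 value per genotype, and for the same reason no replicate could be left out. Counts past 2-fold depended on the pseudocount, and under the other settings they also follow the number of footprints kept. With a pseudocount of 1, long footprints at least 2-fold higher in KO numbered 9 and those lower 4, in place of 123 and 126. Of the 44 named footprints past 2-fold, 36 came under it. With that pseudocount a footprint can pass 2-fold only if its higher value is at least 1. The upper quartiles of the long set were 0.683 in KO and 0.644 in WT, so most long footprints could not pass. The fall in these counts is thus largely set by the constant and does not show how stable the ratios are. Keeping footprints whose mean occupancy reached that of the median footprint gave 56 higher and 38 lower of 222, with medians of 0.835 in KO and 0.733 in WT. Restricting to at least 2 libraries of both genotypes gave 53 higher and 6 lower of 178, a median log2 ratio of 0.55 and a KO median of 0.550. A length of 90 nt or more gave 201 higher and 221 lower of 899, with a median log2 ratio of -0.02. A length of 150 nt or more gave 35 higher and 33 lower of 179, medians of 0.393 in KO and 0.351 in WT, and 49.2% in at least 2 KO libraries.

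By tercile of G+C content, chosen after seeing the data, the median log2 ratio was -0.44, -0.084 and 0.60. Dividing occupancy by length, also chosen after seeing the data, gave a within-gene median of -1.35. A 6-nt match gave a site in 61.8% of long footprints and an 8-nt match in 11.2%. With coding sequence first, 84.8% were in 3′ UTRs. Keeping 3′ UTR footprints only, 1 footprint per gene, or values above 0 moved no median beyond its interval and no count by over 1.5 times. Unknown depth limits all values near 0.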
